A study of Mus musculus with 2 samples.

Results

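Irf2bp1, Irf2bp2 and Irf2bpl are the 3 mouse genes of the IRF2-binding protein family, and this section describes the ARID4B ChIP-seq intervals at them. These 3 genes, of 21887 protein-coding genes on the assembled chromosomes, were chosen by the scores of the intervals at their ends, so those scores are given as a description with no test. Every interval that overlapped the record of 1 of the genes or lay within 50 kb of it was read, which gave 8 of the 6632 intervals in the list. The chromatin came from whole testes of wild type mice of a hybrid C57BL6/J and 129/SvEv strain at postnatal day 1.5, with 108 testes in the pool, and was precipitated with an antibody against ARID4B. The other group was input DNA of the same kind of tissue, strain, genotype and age, with no antibody. Each group was 1 library. No score has a replicate or an error between animals, and no cell type was isolated from the testes. Strong enrichment in a few cells and weaker enrichment in many cannot be told apart in such a pool. The list holds no expression values, so the tissue label was not checked against marker genes. There was no sample without ARID4B, and how much of any interval depends on the protein was not tested.

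ARID4B is a chromatin protein with an AT-rich interaction domain that works with the SIN3 histone deacetylase complex, a machine of gene repression. The IRF2-binding proteins are themselves nuclear corepressors, first known as partners of the repression domain of interferon regulatory factor 2 (IRF2). They share a zinc finger near the amino end, through which the family members bind each other, and a RING finger near the carboxyl end, through which they bind other proteins. IRF2BP2 is also a partner of the NFAT1 and VGLL4 transcription regulators, and IRF2BPL, also named EAP1, is known from the hypothalamic control of puberty. Irf2bp1 and Irf2bpl are known as genes without introns, so that start, coding sequence and end lie close together.

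The 250 bases before the annotated start of each gene are shown because an interval reached all 3 of them, and because the strength of that interval differed widely between the genes. They are RefSeq sequences of GRCm38.p6, written 5′ to 3′ on the strand of the gene, at chr8:126593987-126594236 (minus strand) for Irf2bp2, chr12:86884815-86885064 (minus strand) for Irf2bpl and chr7:19003808-19004057 (plus strand) for Irf2bp1. Capitals mark matches to the short motifs named with the promoter values further on.
Irf2bp2: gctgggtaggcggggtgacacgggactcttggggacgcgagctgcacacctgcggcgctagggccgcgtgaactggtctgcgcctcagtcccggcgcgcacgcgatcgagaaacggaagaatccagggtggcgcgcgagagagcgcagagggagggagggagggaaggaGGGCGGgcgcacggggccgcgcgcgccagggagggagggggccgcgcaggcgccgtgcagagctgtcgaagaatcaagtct
Irf2bpl: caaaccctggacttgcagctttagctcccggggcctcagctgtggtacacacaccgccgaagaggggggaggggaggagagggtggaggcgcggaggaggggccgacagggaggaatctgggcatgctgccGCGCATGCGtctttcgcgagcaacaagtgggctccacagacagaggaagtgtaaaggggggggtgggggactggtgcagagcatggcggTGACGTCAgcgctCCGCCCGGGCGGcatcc
Irf2bp1: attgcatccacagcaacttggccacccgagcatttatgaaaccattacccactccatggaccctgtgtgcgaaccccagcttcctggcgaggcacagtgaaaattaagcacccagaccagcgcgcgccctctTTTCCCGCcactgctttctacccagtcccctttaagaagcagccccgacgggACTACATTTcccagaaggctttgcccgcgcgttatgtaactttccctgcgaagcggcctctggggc

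Irf2bp2 held the strongest evidence of the family, and most of it lay inside the gene rather than at its start. The gene record spans chr8:126588296-126593986 on the minus strand (5691 bp, gene ID 270110). The best interval, chr8:126591005-126593527, had a score of 1641.15 and rank 2 of 6632. The score is the value that the authors deposited for each interval. Its scale is not stated, and it was read here as larger for stronger evidence. Over the list its lowest value was 70.02, its median 125.0 and its highest 1760.61. This interval was 2523 bp wide, lay wholly inside the record, and began 459 bp and ended 2981 bp downstream of the annotated start. It thus left the start and the printed promoter uncovered. A separate interval, chr8:126593814-126595339, covered the start, running from 1353 bp before to 172 bp after it, and all 250 bases of the printed promoter. Its score was 85.41, with 18.0% of the list scoring lower. The gap between the strong interval and the weak one at the start was 286 bp.

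A further weak interval, chr8:126589785-126590750, lay inside the record on the other side of the strong one, 254 bp away from it, with a score of 71.13. Only 1.57% of the list scored lower. The fourth, chr8:126584063-126584789, lay 3.51 kb beyond the downstream end of the record and scored 120.49 (rank 3473). The strongest interval on the chromosome was therefore flanked on both sides by intervals from the lower end of the list, and the next interval beyond the 50 kb limit was 112.95 kb away (113.74). There was no other protein-coding gene within 50 kb. The weak interval at the start also overlapped the record of Gm31546, a long non-coding RNA gene that begins 0.278 kb from that of Irf2bp2, and which of the genes it belongs to cannot be told apart.

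This layout was measured over all protein-coding genes with 1 annotated start and an interval on the record or within 1 kb of it (4241 genes). In 784 of them (18.5%) the best interval lay wholly downstream of the start. In 89 (2.1%) a second, lower-scoring interval covered the start itself. The best interval could lie anywhere on the record or within 1 kb of it, for example from 47233 bp downstream in 1 gene. Both counts thus include genes whose best interval lies far from the start, unlike at Irf2bp2. The score of the downstream interval divided by that of the interval over the start had a median of 1.56 among the 89 genes. At Irf2bp2 it was 19.2, the highest of the 89, the next being 11.4 at Smg6, whose best interval lies at the far end of its record and is shared with Hic1. Smg6 was named after its value was seen. Irf2, the gene of the partner after which the family is named, had the same order of intervals, with 210.83 from 669 bp downstream and 89.51 over the start (ratio 2.36). The numerator at Irf2bp2 is the score on which the gene was chosen, and it was also the highest downstream score of the 89 genes (rank 1), so the high ratio follows in large part from that choice. A ratio of scores compares evidence in this list and is not a ratio of bound protein.

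Irf2bpl had a single interval, wide and strong, over its start and most of its body. The record spans chr12:86880703-86884814 on the minus strand (4112 bp, gene ID 238330). The interval, chr12:86881651-86885161, had a score of 1131.25, rank 9 in the list and rank 1 on its chromosome. It was 3511 bp wide, with 23 wider intervals in the whole list. It ran from 347 bp before the start to 3163 bp after it and covered 76.9% of the record as well as all 250 bases of the printed promoter. No other interval lay within 50 kb, and the nearest outside was 201.1 kb away (score 167.13). No other protein-coding gene lay within 50 kb, so this interval is the most isolated of the family.

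Irf2bp1 had the weakest best interval of the 3 genes, though still a high one. The record spans chr7:19004058-19006763 on the plus strand (2706 bp, gene ID 272359). The interval chr7:19003921-19006135 scored 580.24 (rank 70 in the list, rank 7 on its chromosome) and was 2215 bp wide. It ran from 137 bp before the start to 2077 bp after it and covered 76.8% of the record. Of the printed promoter it covered the 137 bases next to the start. Unlike its relatives, Irf2bp1 lies in a gene-dense stretch, with 6 other protein-coding genes within 50 kb. The other intervals within 50 kb were at these neighbours and were much weaker. The one at chr7:18991768-18992619 (82.72) lay in Mypop, a Myb-related transcription factor gene, 11.4 kb from Irf2bp1. The one at chr7:19024290-19025310 (138.7) covered the start of Sympk, which encodes a scaffold of messenger RNA 3′ end processing, and lay within 1 kb of Foxa3, a forkhead factor gene. Nanos2, an RNA-binding protein gene of male germ cells, the neuronal splicing factor gene Nova2 and the sperm flagellum gene Rsph6a had no interval at an end. The farthest interval inside the 50 kb limit was 17.5 kb away (138.7), and the nearest outside it 73.2 kb away (85.58).

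**Figure D1:**
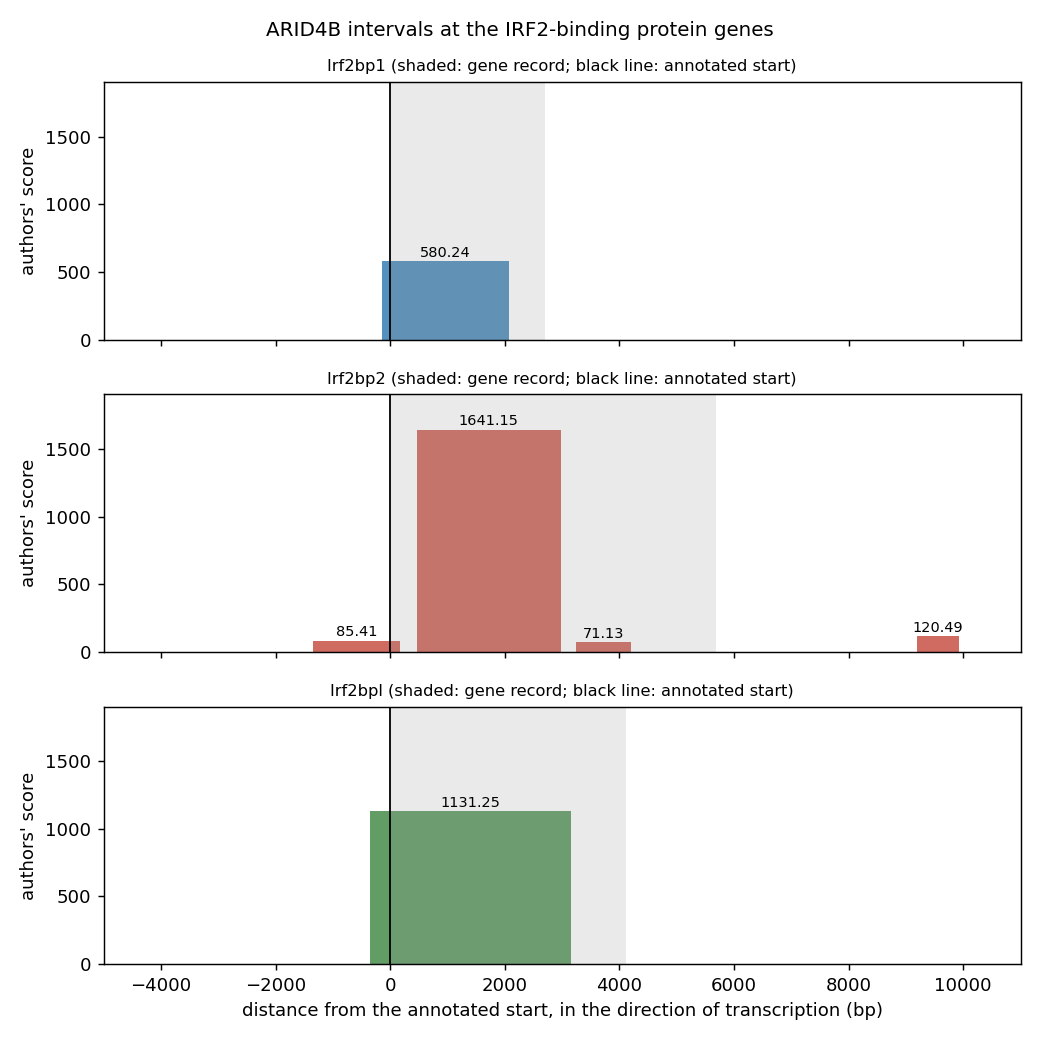
ARID4B intervals around the annotated start of each gene. The x axis is the distance from the start in bp along the direction of transcription, bar width is the interval, bar height the authors' score, and the shaded band the gene record. Irf2bp2 has 1 tall interval inside the record between low ones, while Irf2bp1 and Irf2bpl each have 1 interval that crosses the start. The neighbours' intervals around Irf2bp1 lie outside the plotted range.

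All 3 genes had an interval within 50 kb, which 52.3% of all protein-coding genes had, and 2 of the 3 (Irf2bp1 and Irf2bp2) had 3 or more, against 11.9%. The number within 50 kb was 3 at Irf2bp1, 4 at Irf2bp2 and 1 at Irf2bpl, and the median over all protein-coding genes was 1. All 3 also had an interval within 1 kb of a gene end, as 27.1% of the protein-coding genes did, and an interval over the promoter window (250 bases before to 50 after the start), as 25.4% of the 17492 protein-coding genes with such a window did. Only Irf2bp2 had 2 or more intervals on its record, which 2.6% of all protein-coding genes had. The members were chosen for high-scoring intervals at gene ends, so nothing is read from these shares. The genes differed from each other in layout. At Irf2bp2 the evidence was split into a strong body interval and a weak one at the start, and at the others it was 1 interval.

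The best intervals were wide. Their scores are set beside those of intervals of like width as a description only, since the genes were chosen by these scores. Irf2bp2 ranked 2 of the 107 intervals whose width was within 10% of its own (median score 359.3), Irf2bpl 3 of 24 (median 446.5) and Irf2bp1 19 of 228 (median 309.3). Per kb of width the Irf2bp2 interval had a score of 650.5, again rank 2 of the list. The Irf2bpl interval had 322.2 per kb and fell to rank 63, and the Irf2bp1 interval had 262.0 per kb and rank 188. Irf2bp2 thus kept its place per kb while the others moved down. Dividing by width lowers wide intervals by construction, and the scale of the score is not stated. Nothing is therefore read from the ranks per kb. The weak interval at the start of Irf2bp2 was 1526 bp wide, above the list's median of 1084 bp, but had only 56.0 per kb (rank 6534).

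**Figure D2:**
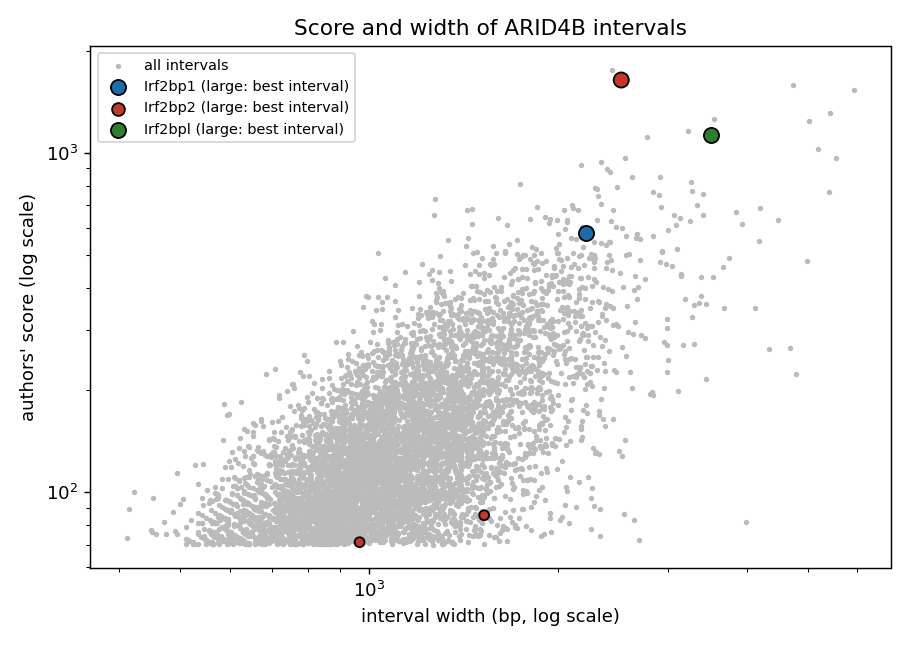
Authors' score against interval width in bp, both on log scales. Grey points are all 6632 intervals and coloured points those overlapping the 3 gene records, the best of each gene drawn larger. The Irf2bp2 best interval (2523 bp, 1641.15) lies near the top edge of the cloud, and the other intervals on its record (71.13 and 85.41) lie near the bottom edge.

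Compared with other genes of similar length, the intervals filled much of these records. Among 3118 protein-coding genes with records of 2 to 6 kb, a range set to hold all 3 genes, 774 had an interval on the record. The intervals covered a median of 25.8% of those 774 records (quartiles 17.4 and 39.3%). They covered 76.8% at Irf2bp1, 76.9% at Irf2bpl and 64.3% at Irf2bp2 (its 3 intervals together, 44.3% for the best alone). Higher shares were found at 22, 21 and 57 of the 774 genes, respectively. By best score on or within 1 kb of the record, the ranks among the 3118 genes were 2 for Irf2bp2, 4 for Irf2bpl and 26 for Irf2bp1. These ranks restate the scores by which the genes were chosen. Their best intervals were wide, and the 774 genes had intervals of any score, so nothing is read from the shares. In this class 8 genes had 3 or more intervals on the record. Irf2bp2 had the highest score of these 8, followed by Mycn (497.68), a growth-promoting transcription factor gene named after its value was seen.

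The centres of the best intervals lay farther into the genes than was typical of all genes with an interval. The midpoint was 970 bp downstream of the start at Irf2bp1, 1408 bp at Irf2bpl and 1720 bp at Irf2bp2. Over the 4241 genes with 1 annotated start the median was 235.5 bp downstream (quartiles 64 and 462 bp). The share of genes with a lower value was 87.8% for Irf2bp1, 90.4% for Irf2bpl and 91.2% for Irf2bp2. Narrow intervals cannot centre far from a start that they cover. Among the 247 genes whose best interval was 2 kb or wider the median was 459.5 bp, and the shares were 71.7, 82.6 and 86.6%, so the 3 genes remained in the upper part of the distribution but less far out. The best interval contained the start in 75.8% of the 4241 genes, as at Irf2bp1 and Irf2bpl. Among the 84 genes with a best score of 500 or more it did so in 67, and Irf2bp2 was 1 of the 17 where it did not. The median midpoint of these 84 was 595.25 bp downstream (quartiles 181.25 and 1027.62 bp). Irf2bp1 lay within these quartiles, and Irf2bpl and Irf2bp2 lay above them.

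**Figure D3:**
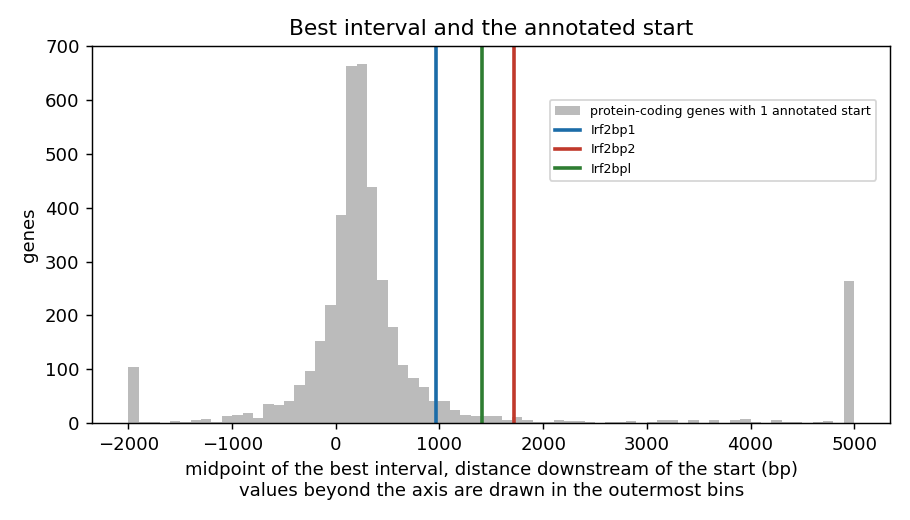
Distance in bp from the annotated start to the midpoint of the best interval (x axis) for 4241 protein-coding genes with 1 start (grey bars, number of genes on the y axis). Coloured lines mark 970 bp for Irf2bp1, 1408 bp for Irf2bpl and 1720 bp for Irf2bp2, all to the right of the main peak, whose median is 235.5 bp.

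The promoters printed above differed in base composition, and the order of CpG content was not the order of the scores over them. Unmethylated CpG-rich promoters are typical of broadly active vertebrate genes. The 250 bases of Irf2bp2 held 32 CpG dinucleotides and 71.6% G+C, those of Irf2bpl 17 and 66.8%, and those of Irf2bp1 14 and 57.2%. The median over 21255 promoters of protein-coding genes was 10 CpG and 55.6% G+C. Fewer CpG were found in 94.1% of these promoters than in that of Irf2bp2, in 68.5% than in that of Irf2bpl and in 60.5% than in that of Irf2bp1. Over all promoters, an interval was present at 54.1% of those with 20 or more CpG, 34.0% of those with 10 to 19 and 4.26% of those with fewer. Among promoters within 2 CpG of Irf2bp2, 490 of 823 had an interval, with a median score of 167.4. The interval over the Irf2bp2 promoter (85.41) ranked 444 of these 490. By the same measure Irf2bpl (1131.25) ranked 2 of 1070 and Irf2bp1 (580.24) 6 of 954. The most CpG-rich promoter of the family thus carried the weakest interval. At Irf2bpl and Irf2bp1 the interval over the promoter is the one on which the gene was chosen, and at Irf2bp2 it is not. Nothing is therefore read from these ranks or from the order.

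**Figure D4:**
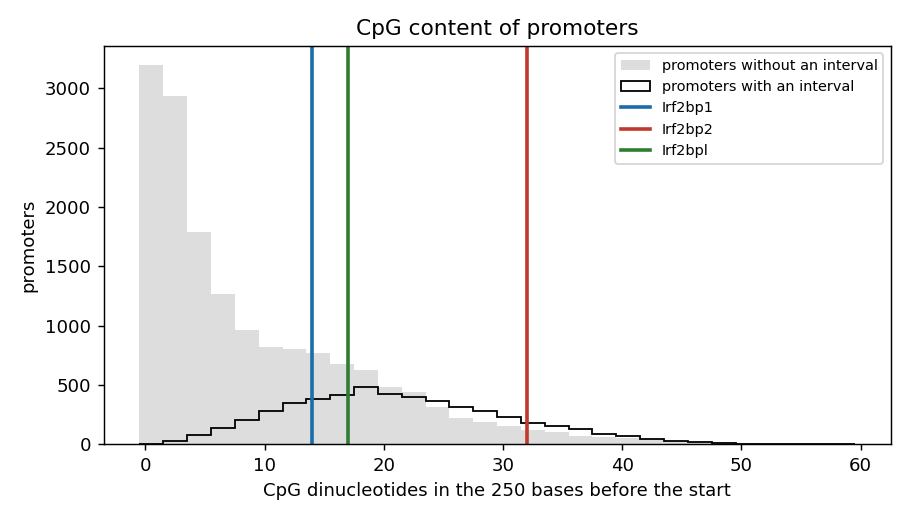
Number of CpG dinucleotides in the 250 bases before the start (x axis) for 21255 promoters of protein-coding genes (number of promoters on the y axis), grey without and outlined with an interval over the promoter. Lines mark Irf2bp1 (14), Irf2bpl (17) and Irf2bp2 (32).

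No motif of those searched was common to the 3 promoters. They were searched on both strands for 8 motifs, chosen after the sequences were seen. The GC box GGGCGG, the site of SP1-like factors, was found once in Irf2bp2, 81 to 76 bases before the start. Irf2bpl had it in both orientations side by side, within the last 17 bases before the start, and it was in 42.6% of all 21255 promoters. Irf2bpl also held the cyclic AMP response element TGACGTCA (30 to 23 bases before the start, in 1.92% of promoters) and the NRF1 core GCGCATGCG (119 to 111 bases before, in 1.93%). Irf2bp1 held no GC box, but the E2F-type letters TTTCCCGC (118 to 111 bases before the start, in 1.19% of promoters) and ACTACANNT, the beginning of the ZNF143 site (66 to 58 bases before, in 4.25%). Both of these lie in the stretch of the promoter that the Irf2bp1 interval covered. CCAAT (35.4% of promoters), TATAAA (11.6%) and the ETS-type letters CCGGAAGT (3.79%) matched none of the 3. In Irf2bpl the GC boxes, in the order CCGCCC and GGGCGG, adjoin without overlap, and no other matches overlapped.

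Genes next to the family in score came from several functions. Above Irf2bp2 stood only Zfp36l2, the gene of an RNA-binding protein that promotes messenger RNA decay (1760.61, a difference of 119.46). Directly below was the interval shared by the repressor gene Hic1 and by Smg6 (1584.47, a difference of 56.68). Irf2bpl stood between Tsc22d2 (1160.13) and Mex3b (1245.12) above and the endodermal and gonadal transcription factor gene Gata6 (1114.18) and the prothymosin alpha gene Ptma (1026.46) below. Irf2bp1 stood between the bZIP factor gene Maf (590.9) and the interval shared by Gm35364 and Ctbp2 (595.16) above, and the RNA demethylase gene Alkbh5 (576.49) and the intraflagellar transport gene Ift80 (575.4) below. Without a replicate the spread of a score is not known, so the order of such close neighbours cannot be told.

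The interferon regulatory factor genes did not share the high scores of the genes of their binding proteins. Of 9 Irf genes 3 had an interval at a gene end (33.3%, 95% Clopper-Pearson interval 7.49 to 70.1%, counting error only), beside 27.1% of all protein-coding genes. Their best intervals were at Irf2 (210.83), Irf1 (199.87) and Irf5 (135.02), all below the lowest of the 3 family members (580.24). The family was chosen for high scores, so nothing is read from this difference. Of 14 genes of known partners of the IRF2-binding proteins, a list that includes Irf2, 7 had one (50%, interval 23.0 to 77.0%). These were led by Vgll4, a cofactor of TEAD factors (297.57), the nuclear receptor corepressor gene Ncor1 (222.78, shared with Pigl), Tead1 (217.27) and Irf2. Among genes with an interval the median best score was 199.9 for the Irf genes and 210.8 for the partner genes, against 132.2 over the 5930 protein-coding genes with an interval at an end. These medians rest on 3 and 7 genes, with Irf2 in both lists. The lists were chosen with earlier results of these data known, so nothing is read from these shares or medians.

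Other corepressor genes had mostly weaker intervals than the family, but the family was chosen for high scores, so nothing is read from this difference. Of 32 genes listed as corepressors outside the family, 24 had an interval at an end, beside 27.1% of all protein-coding genes. This was 75% (95% Clopper-Pearson interval 56.6 to 88.5%, counting error only), with a median best score of 198.2 and a lowest of 71.26. The list was chosen with earlier results of these data known and was not matched for promoter CpG content. Nothing is therefore read from this share. Only Hic1 (1584.47, shared with Smg6), Ctbp2 (595.16, shared with Gm35364) and Trim28 (505.91, shared with Gm31649) reached 500. Hic1 is a repressor gene, Ctbp2 the CtBP corepressor gene and Trim28 the corepressor gene of KRAB zinc finger proteins. The Groucho-family gene Tle1 followed with 433.54. A best score of 500 or more was found at 117 of the 5930 genes with an interval (1.97%). Ncor1 and Cbfa2t3 are in both this list and the partner list. Cbfa2t3 had no interval at an end, but its record held one scoring 365.32, above that of Vgll4 in the partner list.

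The scores of the Zfp36 and Mex3 families and of the TSC22 domain family, each with a gene near the top of the list, are given for scale, beside the 27.1% of all protein-coding genes with an interval at an end. In the Zfp36 and Mex3 families of RNA-binding proteins all 7 genes had one, from 117.8 at Mex3a (named as the lowest) to 1760.61 at Zfp36l2, with a median of 416.0. In the TSC22 domain family 3 of 4 did, from 92.72 at Tsc22d1 to 1160.13 at Tsc22d2, and Tsc22d3 had none. In the IRF2-binding protein family all 3 lay at 580.24 or above. All of these families were picked with their scores in view, and nothing is read from how they differ.

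**Figure D5:**
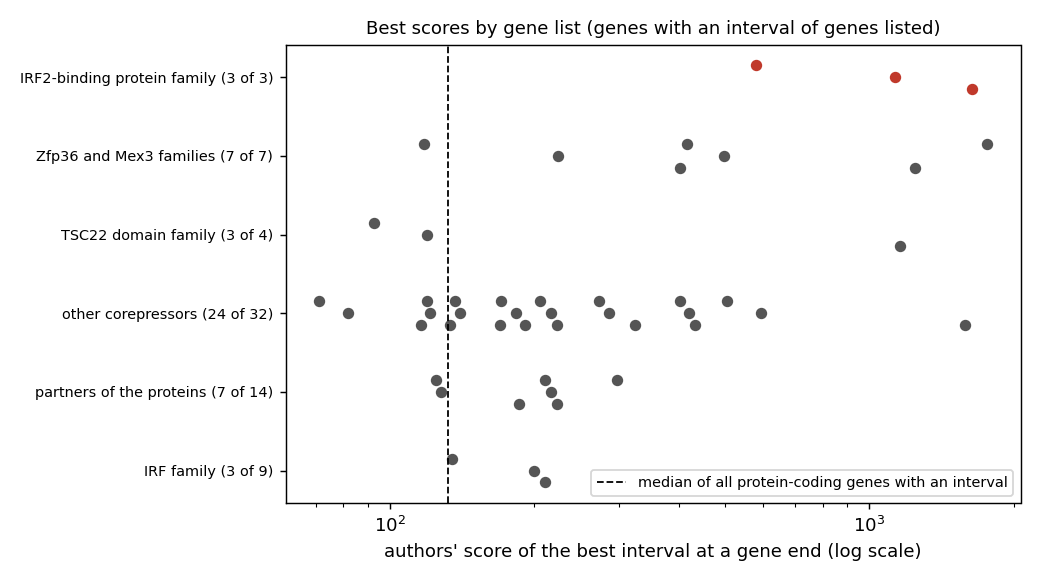
Authors' score of the best interval at a gene end (x axis, log scale) for each gene that has one, by list, with the number of such genes and of genes listed. The 3 red points of the IRF2-binding protein family (580.24, 1131.25 and 1641.15), which was chosen for high scores, lie to the right of every point of the Irf and partner lists. The dashed line is the median over all protein-coding genes with an interval (132.2).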

How the data were processed

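ARID4B ChIP DNA and input DNA from mouse testes were sequenced as 1 library each. Alignment with BWA, interval calling with MACS and build mm9 are named per the submitters' processing notes, without versions or settings. The authors deposited a score for each interval, under a name that calls it a p-value although all scores exceed 70. Its scale is not stated, and the depth of either library is unknown.

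The list is named for mm10. Of the 6448 intervals on chromosomes present in the RefSeq promoter table of GRCm38.p6, 66.3% overlapped a promoter window in place and 2.5 or 2.67% after a shift of 5 kb either way, so positions were read as GRCm38, counting from 1. Overlaps needed 1 bp. Gene records, starts and strands came from RefSeq tables of that build. Exons, sequence under the intervals and proteins were not analysed here.

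Values were computed in Python 3.11.15 (pandas 2.3.3, numpy 2.4.6, scipy 1.17.1), with overlaps and distances tested on simulated data. No test was made, since there is 1 library and the genes were chosen on its scores. The members and lists were chosen with earlier results of these data known. The rule for names took the 3 genes, protein-coding genes within 50 kb, up to 2 genes next above and below each in score, and up to 4 best genes of each list, with those lacking an interval where 5 or fewer. One planned small family is not reported here. Other names are marked as such or share an interval, except Cbfa2t3, which was named outside the rule. Alternatives were other reaches, midpoints, a higher score limit and other rankings.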

Additional observations from a re-analysis of the deposited data

How the results depend on the processing

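The number of intervals at Irf2bp1 was 3 within 50 kb, 1 within 10 kb and 5 within 100 kb, the added ones lying at neighbouring genes. At Irf2bp2 it was 4 with each reach and 1 when only intervals scoring above the list's median were kept, its 3 others scoring below the median. With that limit Irf2bp1 had 2, so none of the 3 genes then had 3 or more. At Irf2bpl it was 1 under all 4 alternatives. The share of the list scoring below the best interval was 98.9% at Irf2bp1, 99.97% at Irf2bp2 and 99.9% at Irf2bpl. On the same chromosome only, it was 98.5, 99.7 and 99.6%, where fewer intervals are ranked. Among intervals above the median score it was 97.9% at Irf2bp1 and 99.7% at Irf2bpl. That limit shortens the list and leaves the ranks of the best intervals unchanged, so the shift was fixed in advance. By score per kb of width it was 97.2% at Irf2bp1 and 99.1% at Irf2bpl. Ranking only intervals that lay at protein-coding gene ends (1 kb) moved none of the 3 beyond counting error. For the midpoint distances, alternatives chosen after seeing the data were all annotated starts (88.2, 91.3 and 90.6% of genes lower for Irf2bp1, Irf2bp2 and Irf2bpl) and records of 2 to 6 kb only (77.6, 88.3 and 84.8%). No paired analysis was possible because each group was 1 library. Depth is unknown, so how it limits weak intervals was not tested.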
